A study of Mus musculus with 2 samples.

Results

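Megakaryocyte-lineage cells were followed in the bone of mice with and without an inducible Dach1 transgene. They were 1108 cells of 55783 kept, 559 in the Control library and 549 in the Dach1OE library, chosen by their own counts of unique molecular identifiers (UMIs, 1 for each captured RNA molecule). A cell was a member if at least 3 of the 7 genes Pf4, Ppbp, Gp9, Itga2b, Gp5, Treml1 and Mpig6b had a UMI, if Cdh5, Pdgfra and Pdgfrb had none, and if Acan had fewer than 5. Kept cells had 500 to 6000 detected genes and under 25% of UMIs from mitochondrial genes. The levels of the 7 markers, and groups set by their number, are therefore a description of the choice wherever they are given below. The check of the label rests on genes that the choice did not use.

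Cells came from femur and tibia of C57BL/6 mice at postnatal day 30 and were profiled on the BD Rhapsody system. Dach1OE mice carried Apj CreERT2 and Dach1OE +/f, so that tamoxifen, given soon after birth to both groups, let the Cre under control of Aplnr, a gene of capillary endothelial cells (ECs), switch on Dach1. Control mice were Dach1OE +/f without the Cre. There was 1 library per group, each a pool of a pair of mice of both sexes, and the marrow had been depleted of lineage-positive, CD45+ and CD117+ cells, so the blood cells described here are those left after depletion. With 1 library per group no difference between the groups could be tested, and each interval below is a 95% interval that covers counting error alone, not the spread between mice.

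Megakaryocytes are the large, polyploid bone marrow cells that shed platelets. They arise from blood stem and progenitor cells, and GATA and ETS family factors switch on their platelet genes. They load alpha granules with chemokines, growth factors and adhesive proteins and dense granules with small molecules such as serotonin, and extend proplatelets on a cytoskeleton of beta-1 tubulin and actomyosin into marrow sinusoids.

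The genes of the choice lie on 5 chromosomes (GRCm38, GENCODE vM21). Pf4 (platelet factor 4, chr5:90772435-90773383, plus strand) and Ppbp (pro-platelet basic protein, chr5:90768518-90770063, plus strand) are neighbouring chemokine genes, and Itga2b (the integrin alpha chain of the fibrinogen receptor, chr11:102453297-102470122, minus strand), Gp5 (a subunit of the von Willebrand factor receptor complex, chr16:30307685-30310779, minus strand) and Gp9 (another subunit, chr6:87778072-87779768, plus strand) code for surface proteins, as do Treml1 and Mpig6b on chromosome 17. Because GATA and ETS factors act in this lineage, the promoters of all 7, from 250 bases before to 50 after the start site in RefSeq on GRCm38.p6, were searched on both strands for a core sequence of each family: AGATAA, its variant with T as the first letter, TGATAA, and AGGAAG for the ETS family. The first of these, AGATAA, was in 3 of the 7 promoters (Gp5, Mpig6b, Pf4) and in 11.2% of 32851 promoters. AGGAAG was in 4 of the 7 (Gp5, Gp9, Itga2b, Pf4) and in 35.4% of all. TGATAA was in none of the 7 and in 9.05% of all. A match describes these letters and is no evidence of binding. The promoters of Pf4 and Gp5, each with matches of both kinds, and of Itga2b, with AGGAAG matches alone, are printed 5′ to 3′ on the strand of the gene, with each match to a motif or its reverse complement in capitals.
Pf4, chr5:90772185-90772484, plus strand: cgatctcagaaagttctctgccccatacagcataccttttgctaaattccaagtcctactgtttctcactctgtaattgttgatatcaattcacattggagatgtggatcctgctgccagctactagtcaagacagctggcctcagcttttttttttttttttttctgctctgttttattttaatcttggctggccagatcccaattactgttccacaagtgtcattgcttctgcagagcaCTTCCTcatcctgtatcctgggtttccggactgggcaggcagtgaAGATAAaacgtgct
Gp5, chr16:30310732-30311031, minus strand: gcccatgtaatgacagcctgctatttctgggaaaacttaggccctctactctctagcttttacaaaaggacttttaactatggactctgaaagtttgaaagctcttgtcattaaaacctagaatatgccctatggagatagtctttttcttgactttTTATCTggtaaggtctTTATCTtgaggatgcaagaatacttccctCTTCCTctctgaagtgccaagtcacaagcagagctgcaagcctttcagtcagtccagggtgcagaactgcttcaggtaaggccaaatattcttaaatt
Itga2b, chr11:102469834-102470133, minus strand: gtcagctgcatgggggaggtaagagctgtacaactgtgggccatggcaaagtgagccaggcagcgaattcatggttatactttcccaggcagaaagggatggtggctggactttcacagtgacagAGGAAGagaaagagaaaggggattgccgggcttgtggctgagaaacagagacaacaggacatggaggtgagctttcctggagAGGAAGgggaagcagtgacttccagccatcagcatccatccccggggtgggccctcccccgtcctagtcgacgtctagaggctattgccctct

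Depth was alike in the libraries. The median member held 3475 UMIs from 1380 genes in Control and 3225 from 1314 in Dach1OE, and members held 2858240 and 2673005 UMIs in all. The tables share 1049 cell barcodes, but no member's barcode was a member in both. The label of the cells was checked with genes the choice did not use, against cells of other classes chosen by at least 3 of their own markers and fewer than 3 of the 7. To put cells of unequal depth on 1 footing, each cell was thinned at random to 1000 UMIs, which left out 35 members of Control and 43 of Dach1OE. Clec1b, the podoplanin receptor of platelets, then had a UMI in 46.9% (42.6 to 51.3) of Control members and 46.4% (42.0 to 50.9) of Dach1OE members, against 0.345% and 0.349% of erythroid class cells. Gp6, the platelet collagen receptor, had one in 28.2% and 28.3% of members. In erythroid class cells it had none in Control, which allows a share of up to 0.207% of cells with a UMI at this depth, not of cells that express it, when 3 counts of 1450 cells are taken as the limit, and one in 0.0582% in Dach1OE. Clec1b and Gp6 therefore set the members as a group apart from erythroid class cells. Gp1bb, also outside the choice, was found after thinning in only 2.10% of members with 3 of the markers and 8.46% of those with 7. The label did not hold for all members: 277 of 1108 were in clusters led by genes of another cell type, given below.

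**Figure D1:**
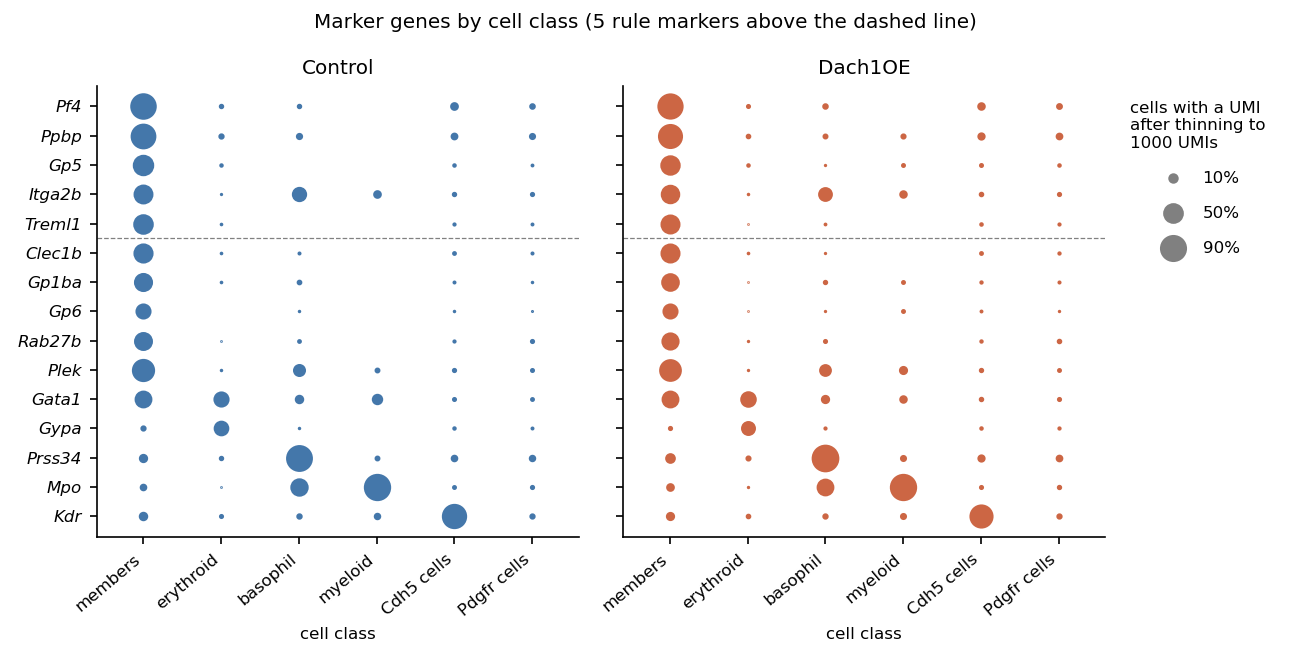
Share of cells with a UMI of each gene after thinning to 1000 UMIs (dot area), by cell class, in the Control (left) and Dach1OE (right) libraries; the genes above the dashed line were used to choose the members. Members carry Clec1b, Gp1ba, Gp6, Rab27b and Plek in both libraries, share Gata1 with the erythroid class, and hold Prss34 and Mpo in few cells.

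The chemokines made up most of the chosen genes' RNA. Pf4 had 43504 UMIs in Control members and 30573 in Dach1OE members, with medians of 29 and 20 per cell and maxima of 894 and 897. Ppbp had 40729 and 34383 UMIs, with medians of 24 and 20 per cell and maxima of 1325 and 1025. Together they were a median of 2.28% of a member's UMIs in Control (quartiles 0.664 and 5.17%) and 1.79% in Dach1OE (0.354 and 4.76%). The tenth of members richest in Pf4 held 54.6% of its UMIs in Control and 60.1% in Dach1OE, so the libraries' sums rest on few cells. Pf4 and Ppbp were also found outside the members: after thinning, Pf4 had a UMI in 1.59% and 1.28% of erythroid class cells but in 6.40% and 6.02% of Cdh5 cells, that is, cells with a UMI of the EC gene Cdh5. Between these classes median depth was 7027 and 7765 UMIs for erythroid cells against 2944 and 2888 for Cdh5 cells. Erythroid class cells were limited to fewer than 3 of the chosen genes, Pf4 among them, and Cdh5 cells were not. Of Cdh5 cells, 159 of 9315 in Control and 204 of 9910 in Dach1OE had 3 or more. The choice of the classes therefore bears on this contrast in Pf4, and by how much was not tested.

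At the edge of the choice, 301 Control and 343 Dach1OE cells without the excluding genes had 2 of the 7 markers and were left out. Their median was 3 UMIs over the 7 genes in each library, against 9 and 8 in the 116 and 145 members with 3 markers and 258 and 219 in the 136 and 129 members with all 7. The excluding genes set aside more: 340 Control and 399 Dach1OE kept cells had at least 3 markers together with a Cdh5, Pdgfra or Pdgfrb UMI or 5 Acan UMIs, of which 191 and 244 had Cdh5. A further 84 and 103 barcodes had at least 3 markers but fewer than 500 genes, with medians of 737 and 727 UMIs of which 4.12% and 2.49% were Pf4 and Ppbp. These were 9.29% and 7.05% of all barcodes with so few genes.

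Genes of platelet function that the choice did not use led the members. Ranked by the smaller of the 2 libraries' ratios to all other kept cells, the first included F2rl2, a thrombin receptor (454 CPM, the usual share of UMIs scaled to a common total, in Control members and 361 in Dach1OE members, log2 ratios of 7.45 and 7.29), Gcsam (7.12 and 7.21), Clec1b (7.18 and 7.01), Gp6 (7.25 and 7.01) and Gp1ba, the von Willebrand factor binding chain (7.22 and 6.93). They were followed by the ion exchanger Slc24a5, Ly6g6f, the serotonin transporter Slc6a4, the adaptor Sla, the actin bundling protein Pls1, the protein kinase C substrate Plek, the adhesion receptor Cd226, the G protein Gnaz and the adaptor Grap2, all at log2 ratios of 6.31 or more in each library.

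Against the erythroid, basophil and myeloid class cells pooled, 1836 of 12436 genes with at least 50 UMIs were at least 2-fold higher in members of both libraries (14.8%) and 1482 at least 2-fold lower (11.9%). The pool held 1451 and 1719 erythroid, 372 and 460 basophil and 48 and 84 myeloid class cells in Control and Dach1OE. Erythroid cells were deeper than basophil cells (medians of 7027 and 7765 against 3119 and 2841 UMIs). Levels called those of the blood classes are therefore mainly erythroid. The lower count depended on the cells taken: it was 438 with at least 2 markers and larger than 1482 in other settings, given in the closing section. Members here include the 277 in clusters led by other cell types. Genes of cell types outside blood were also among those at least 2-fold higher. They were 5 of 5 mural, 3 of 8 endothelial, 2 of 9 stromal and bone and 0 of 6 chondrocyte genes, with 0 lower in each list. Of the adhesion receptors outside the choice, 17 of 19 were at least 2-fold higher and none lower, with median log2 ratios of 5.20 in Control and 4.94 in Dach1OE. Itgb3, the beta chain that pairs with Itga2b, was at 1210 CPM in Control members and 1044 in Dach1OE members, against 4.39 and 4.67 in the blood classes, and Cd9 at 1692 and 1428 against 46.0 and 46.5. Cd36 and Jam3 were not past this fold in both libraries. Cd36, a platelet receptor in many settings, had 62 UMIs in Control members and 18 in Dach1OE members, a level of 21.7 and 6.73 CPM against 766 and 224 CPM in Cdh5 cells.

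Activation signalling genes were higher in 25 of 28 measured, with medians of 4.89 and 4.53. P2ry12, the ADP receptor that clopidogrel blocks, was at 219 CPM in Control members and 248 in Dach1OE members against 0.540 and 0.311 in the blood classes, and Alox12, the platelet lipoxygenase, at 1208 and 1316 against 2.77 and 2.99. Apbb1ip was lower (57.4 and 90.5 against 280 and 311 CPM). Among alpha granule genes 18 of 22 were higher, with medians of 3.73 and 3.93. Mmrn1, which binds factor V, was at 373 and 312 CPM, and F5, factor V, at 337 and 289, against at most 3.55 CPM for either in the blood classes. Thbs1, a thrombospondin, was at 915 and 871 CPM against 11.2 and 14.9. The dense granule list was divided: 7 of 14 were higher, among them Rab27b (586 and 520 CPM against 2.62 and 2.86) and Slc35d3 (136 and 105 against 0.231 and 0.187), while Slc18a2, the vesicular monoamine transporter, was at 49.3 and 56.5 against 40.4 and 34.2.

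Cytoskeletal genes were higher in 21 of 26, with medians of 3.02 and 2.82. Tmsb4x, which binds monomeric actin, was at 28923 CPM in Control members and 25969 in Dach1OE members against 1363 and 1409, and Tpm4, a tropomyosin, at 1571 and 1460 against 19.1 and 21.3. Tubb1, beta-1 tubulin, had 201 UMIs in Control and 268 in Dach1OE, a level of 70.3 and 100 CPM against 0.154 and 0.311. Of the transcription factors 9 of 22 were higher and 2 lower. Nfe2, required for platelet release, was at 712 and 759 CPM against 89.8 and 83.2, Fli1 at 417 and 388 against 34.6 and 32.2, and Meis1 at 108 and 86.8 against 6.32 and 5.79. Gata1, which erythroid cells and megakaryocytes share, was at 494 and 578 CPM against 331 and 332, within the fold. Myb and Ldb1 were lower. No cell cycle gene of 28 was higher and 20 were lower, with medians of -1.52 and -1.41. Mki67 was at 182 and 215 CPM against 671 and 571.

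The antigens of the depletion were low in members. Ptprc, which codes for CD45, had 57 UMIs in Control members and 50 in Dach1OE members and was found after thinning in 1.53% (0.661 to 2.99) and 2.17% (1.09 to 3.86), against 13.7% and 13.3% of basophil class cells. Kit, which codes for CD117, had 34 and 43 UMIs. Which members had been lost in the depletion was not measured. Genes whose products act on bone were present too: 14 of 23 measured were at least 2-fold higher than in the blood classes and 4 at least 2-fold lower, which were Vegfb, Il6, Ccl3 and Mmp9, against 14.8% and 11.9% of all genes tested. Ccl3, a chemokine, was at 35.3 CPM in Control members and 31.4 in Dach1OE members against 113 and 129, and Vegfb at 24.8 and 32.2 against 76.1 and 79.2. Bmp2 was at 79.4 and 69.2 CPM against 1.23 and 1.56, Pdgfa at 154 and 183 against 8.94 and 6.04, Pdgfb at 78.7 and 57.2 against 1.31 and 2.43, Il1a at 54.6 and 49.0 against 0.154 and 0.0623, and Angpt1, the ligand of Tie2 on sinusoidal ECs, at 261 and 216 against 34.8 and 35.0. Tgfb1 was at 93.1 and 76.7 against 21.0 and 22.5. Vegfa was at 25.5 and 28.4 CPM, against 43.4 and 56.2 CPM in Cdh5 cells.

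Dach1 was checked in all classes, since the transgene was driven in ECs. It was at 5.76 CPM in Control Cdh5 cells and 176 CPM in Dach1OE Cdh5 cells. In members it had 45 UMIs in Control (15.7 CPM, 11.5 to 21.1) and 61 in Dach1OE (22.8 CPM, 17.5 to 29.3), a log2 ratio of 0.54 (-0.04 to 1.12). Aplnr, whose regulation drives the Cre, had 20 and 15 UMIs in members, against 514 and 501 CPM in Cdh5 cells.

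Members differed among themselves in depth, in RNA of organelles and in genes of other cells. A share of mitochondrial UMIs under 1% was found in 151 of 559 Control members, which is 27.0% (23.4 to 30.9), and in 136 of 549 Dach1OE members, which is 24.8% (21.2 to 28.6). In all other kept cells it was found in 0.444% and 0.490%, and in no basophil or myeloid class cell of either library. A share of ribosomal-protein gene UMIs under 1% was found in 95 Control members, 17.0% (14.0 to 20.4), and 105 Dach1OE members, 19.1% (15.9 to 22.7), against 28 of 25907 and 20 of 28768 other kept cells (0.108% and 0.0695%). Both shares were under 1% in 31 and 22 members. Neither property was part of the choice, apart from the upper limit on mitochondrial share.

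**Figure D2:**
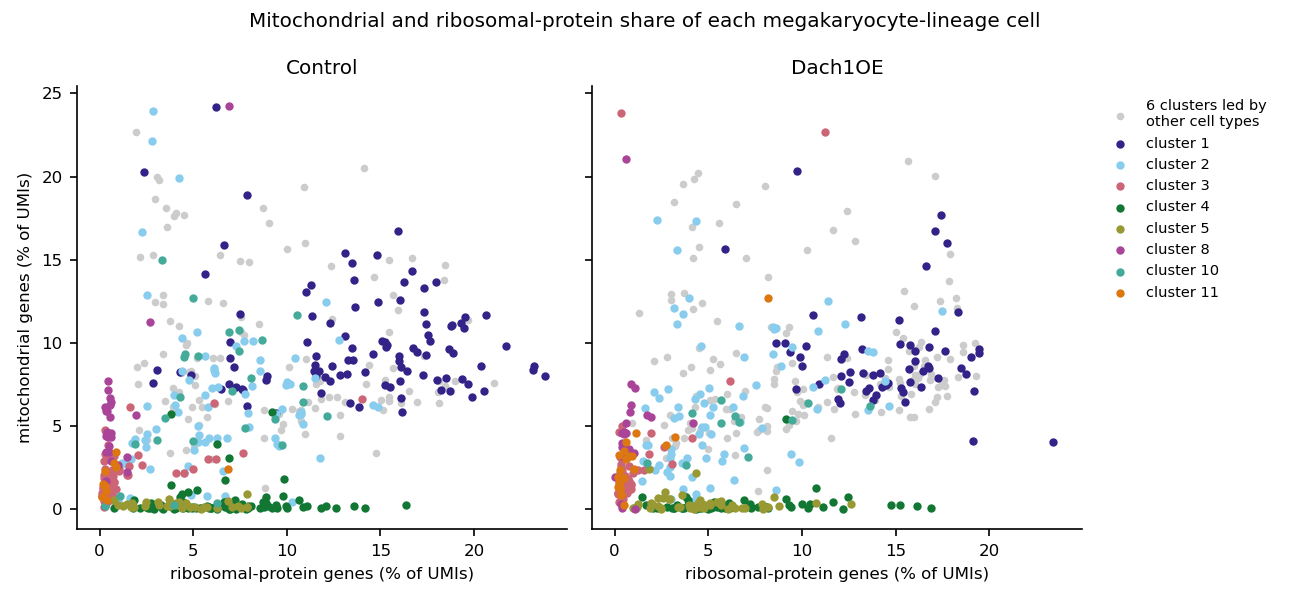
Each point is a member, placed by its share of UMIs from ribosomal-protein genes (horizontal) and from mitochondrial genes (vertical), in Control (left) and Dach1OE (right), coloured by cluster. Clusters 4 and 5 lie along the foot of the plot at medians of 0.131% and 0.195% mitochondrial UMIs, clusters 3, 8 and 11 along its left edge at ribosomal-protein medians of 0.424%, 0.571% and 0.473%, and cluster 1 at the right with 14.8%.

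Clustering of members on genes outside the choice gave 14 clusters, which are described here by their leading genes and not tested. Of these, 6 were led by genes of another cell type: at least 3 of the 25 leading genes were on a list of basophil (cluster 6, 76 cells, Prss34, Mcpt8, Cpa3), erythroid (cluster 7, 73 cells, Car2, Car1), stromal and bone (cluster 9, 50 cells, Cxcl12, Dcn, and cluster 12, 28 cells, Bglap, Ibsp) or mural genes (cluster 13, 26 cells, Acta2, Rgs5), or, for cluster 14 of 24 cells, were Fabp4, Plvap, Ptprb and Flt1 of endothelium, a list chosen after the clusters were seen. They held 119 Control members (21.3%) and 158 Dach1OE members (28.8%), or 277 of 1108. Cells of clusters 6 and 7 had medians of 0.0996% and 0.101% Pf4 and Ppbp UMIs. For these 277 cells the label went against their leading genes. Why they carry these genes was not tested. The other 831 cells were in 8 clusters.

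Those 8 clusters differed in depth, in mitochondrial and ribosomal-protein share and in leading genes. Whether they are states of intact cells was not tested. Cluster 1 (100 Control and 61 Dach1OE cells) had 8375 UMIs per cell in the median, 14.8% ribosomal-protein and 8.91% mitochondrial UMIs, and was led by mitochondrial genes, Hmgb2, Ran and Npm1. Its cell cycle list summed to 4521 CPM, and it held Mki67 at 264.5 CPM, Top2a at 458 and Mcm5 at 164. Its Pf4 was at 20084 CPM and its Ppbp at 3823 CPM. In the other 7 clusters Mki67 was between 0 and 95.5 CPM, and in cluster 10 (27 and 12 cells, 15171 UMIs in the median) it was at 7.10 CPM with Pf4 at 28639 and Ppbp at 33953 CPM.

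Cluster 2 (76 and 80 cells) was shallow, with 1327 UMIs in the median and 6.46% of them Pf4 and Ppbp, and was led by Slpi, Timp3 and the cartilage collagen Col2a1. Cluster 4 (88 and 62 cells), led by Timp3, Cavin2, Plek and Actn1, and cluster 5 (35 and 53 cells), led by the contractile genes Myl9, Cnn2 and Tpm4, were the clusters nearly without mitochondrial UMIs. Myl9, a myosin light chain, was at 2759 CPM in cluster 5 and 825 in cluster 4, and Ppbp was at 38653 and 35969 CPM.

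Clusters 3 (78 and 77 cells), 8 (26 and 25) and 11 (10 and 21) were those with few ribosomal-protein UMIs. Tsc22d1, a leucine zipper transcriptional regulator, was at 31612 CPM in cluster 3, 16890 in cluster 8 and 12967 in cluster 11, against 348 to 1177 CPM in the other 5 clusters. Hba-a1, an alpha globin, was at 6064, 2108 and 6801 CPM in these 3 against 20.8 to 51.2 CPM in the others. Ptma, an abundant nuclear protein gene, was the reverse: 387, 183 and 496 against 2743 to 9618 CPM. Pdgfa was at 896, 500 and 763 CPM in clusters 3, 8 and 11 and at 1.38 to 76.8 CPM in the other 5, whereas Pdgfb was at 6.00, 0 and 25.4 against 52.6 to 174 CPM. Timp3 was at 28.5, 83.3 and 25.4 CPM against 676 to 3326. Itga6, the laminin receptor chain, was at 4627, 2941 and 5835 CPM against 177 to 517.

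Within these 3, cluster 8 had 1702 UMIs and 652 genes per cell in the median, all 7 markers in its median cell, Thbs1 at 4891 CPM, Clu at 2666, F5 at 2066, Hist1h2bc at 3616 and Tmsb4x at 75724 CPM. Cluster 3 had Nfe2 at 3927 CPM, Gata1 at 1827 and Gata2 at 1554. Cluster 11 stood apart by Malat1, a nuclear RNA, which was 6.35% of a cell's UMIs in the median. Median Malat1 was 0% in clusters 2, 4, 5 and 8 and at most 0.153% in clusters 1, 3 and 10. Cluster 11 had Neat1 at 2848 CPM, Itga2b at 6903, Tubb1 at 1881 and Pf4 at 1500 CPM. Tubb1 was at 306 CPM in cluster 3, 208 in cluster 8 and 1.38 to 56.8 CPM in the 5 clusters richer in ribosomal-protein UMIs.

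**Figure D3:**
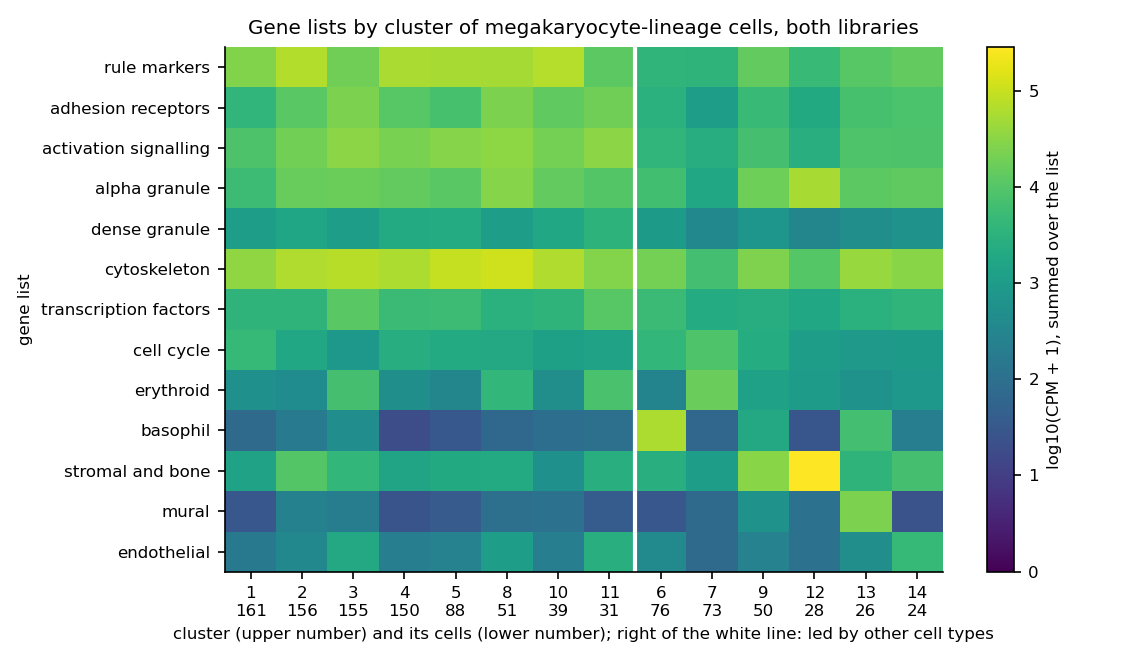
Summed level of each gene list in each cluster of both libraries, as log10(CPM + 1), with the clusters led by other cell types to the right of the white line. The adhesion receptor list reaches 23540 and 23889 CPM in clusters 3 and 8 and 1137 CPM in cluster 7, and the stromal and bone list 283149 CPM in cluster 12.

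Members with all 7 markers held more RNA of the platelet gene lists than those with 3, but some lists did not rise throughout. The groups compared here are set by the values of the choice itself, so these levels are a description with no test. In cells thinned to 1000 UMIs, the adhesion receptor list summed to 3025 CPM in members with 3 markers, 6185 with 4, 11036 with 5, 14519 with 6 and 14858 with 7. In a separate random thinning, the log2 ratio of the list's summed level in members with 6 or 7 over those with 3 was 2.25, at 2.08 in Control alone and 2.51 in Dach1OE alone. The activation signalling list went from 7790 to 24204 CPM and the cytoskeleton list from 28773 to 70512. The alpha granule list was at 10458 CPM with 3 markers, 9515 with 4 and 18081 with 7. The dense granule list was at 887, 1566 and 1562 CPM with 3, 5 and 7. Transcription factors were at 3916, 6612 and 4731 CPM with 3, 6 and 7. Tubb1 had a UMI in 2.52%, 13.8% and 9.23% of thinned members with 3, 5 and 7. The cell cycle list went from 3307 to 2162 CPM, and Mki67 had a UMI in 16.4% of thinned members with 3 markers and 5.38% with 7. The share in clusters led by other cell types went from 59.0% with 3 markers through 36.5% with 4 and 6.85% with 6 to 7.55% with 7, and the stromal and bone list from 26710 to 3831 CPM. Median depth went from 2893 UMIs with 3 markers to 5145 with 7, so the number of markers also moved with depth. Without the 6 clusters the log2 ratio was 1.94.

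**Figure D4:**
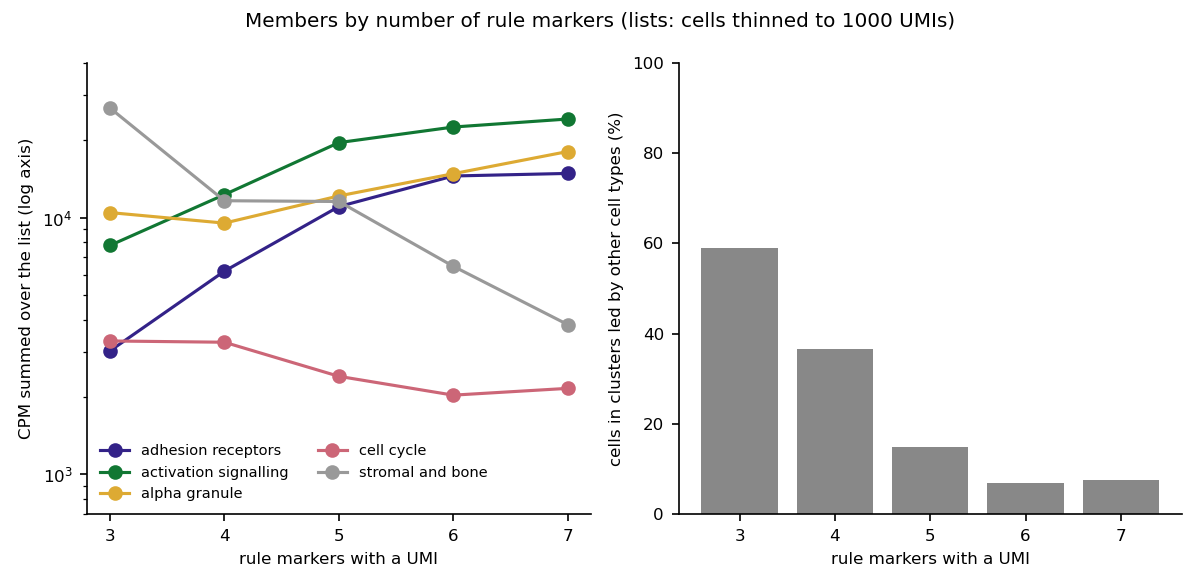
Left, summed level of 5 gene lists in members with 3 to 7 of the markers, each cell thinned to 1000 UMIs (log axis); right, share of these members in the 6 clusters led by other cell types. Adhesion receptors go from 3025 to 14858 CPM while the share goes from 59.0% to 7.55%.

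Single genes were ranked by the weaker of the 2 libraries' ratios, so that their agreement in direction is fixed by the ranking. The genes of largest ratio between members with 6 or 7 markers and those with 3 included F5 (log2 4.08 in Control and 4.14 in Dach1OE), the interferon-induced GTPase Igtp (3.97 and 3.88), Gp1ba (3.77 and 4.04), Myct1 (3.51 and 3.89), the ion exchanger gene Slc24a5 (5.68 and 3.40) and Mmrn1 (3.37 and 3.47). Those of smallest ratio included the basophil proteases Cpa3 (-5.78 and -4.03), Prss34 (-5.99 and -3.95) and Mcpt8 (-5.59 and -3.91), the myeloid protease Ctsg (-4.24 and -4.20) and the erythroid gene Ermap (-4.29 and -4.61).

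Between the groups, members were 2.11% (1.94 to 2.29) of 26466 kept cells in Control and 1.87% (1.72 to 2.03) of 29317 in Dach1OE, a difference of -0.240 percentage points (-0.473 to -0.008). With mitochondrial UMIs limited to under 10% it was -0.0988 points (-0.387 to 0.188). Among members and the other blood classes they were 23.0% in Control and 19.5% in Dach1OE. Some cells could be split by sex from their UMIs, and each sex is taken, not known, to be 1 mouse per library. The difference was -0.336 points (-0.648 to -0.026) in cells with Xist and 0.107 points (-0.291 to 0.494) in cells with Y-linked genes. The cells so told were 213 of 559 members in Control and 200 of 549 in Dach1OE. They were spread unevenly over the clusters. Of 161 cells in cluster 1, 71 were told by Xist and 43 by Y-linked UMIs, against 8 and 14 of 155 in cluster 3. The told cells are therefore not an even sample of the members. Cells with Xist were 65.3% of the told members in Control and 49.5% in Dach1OE, and 62.9% and 55.9% of all told kept cells. Erythroid class cells were 5.48% and 5.86% of kept cells. These shares stand after depletion, which acted on each library apart, so depletion and genotype cannot be told apart.

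In RNA summed over members, 122 of 8711 genes with at least 50 UMIs were at least 2-fold higher in Dach1OE (1.4%) and 37 at least 2-fold lower (0.425%), and the median log2 ratio of all was 0.01. No gene of the 7 used for the choice passed 2-fold. Pf4 had a log2 ratio of -0.41 (-0.43 to -0.39), Treml1 of -0.30 and Mpig6b of 0.09. Adhesion receptors had a median of -0.23 with 1 of 18 measured past 2-fold, Cd36 at -1.69 (-2.53 to -0.91). Activation signalling had a median of -0.11 with none of 27 past 2-fold, alpha granule genes -0.22 with Sparc past it of 21, cytoskeletal genes -0.04 with Diaph2 past it of 25 (log2 -1.05), dense granule genes -0.04 and transcription factors -0.04 with none past it of 13 and 22. Cell cycle genes had a median of 0.20 with none of 28 past 2-fold.

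These medians depended on which cells were taken. The adhesion receptor median was -0.0329 with cells weighted equally, -0.69 in cells with Xist and -0.50 in cells with Y-linked UMIs, and the cause was not tested. Cells told by sex were not an even sample of the members, as given above. Without the 6 clusters, 440 Control and 391 Dach1OE members remained. The clusters that remained were not held in equal shares: cluster 1 was 17.9% of Control and 11.1% of Dach1OE members (a difference of -6.78 points, -10.9 to -2.64), cluster 4 was 15.7% and 11.3% (-4.45, -8.48 to -0.41), and cluster 10 was 4.83% and 2.19%. Cluster 5, at 6.26% and 9.65% (3.39, 0.196 to 6.65), and cluster 11, at 1.79% and 3.83%, had the larger share in Dach1OE. Clusters 2, 3 and 8 differed by 0.976, 0.0720 and -0.0974 points. These intervals count cells, which are not replicates, so they do not sort clusters into changed and unchanged. In the remaining cells the medians were 0.03 for adhesion receptors, 0.11 for activation signalling, -0.02 for alpha granule genes, 0.13 for cytoskeletal genes, 0.03 for transcription factors and -0.15 for cell cycle genes. Genes of other cell types still differed in those cells: the basophil list had a median of -2.55 with 3 of 3 measured at least 2-fold lower, the myeloid list -5.56 with 2 of 3 lower, S100a8 and S100a9, which had 1 UMI each in Dach1OE, and the mural list 1.61 with 2 of 2 higher, Acta2 and Rgs5. The chondrocyte list had 3 of 5 measured at least 2-fold higher and summed to 647 CPM in Control and 1226 in Dach1OE. Their part in the other medians was not tested. Pf4 then had a log2 ratio of -0.14 (-0.17 to -0.12), against -0.41 in all members. Of 6962 genes measured in those cells, 35 were at least 2-fold higher and 41 at least 2-fold lower (0.503% and 0.589%).

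**Figure D5:**
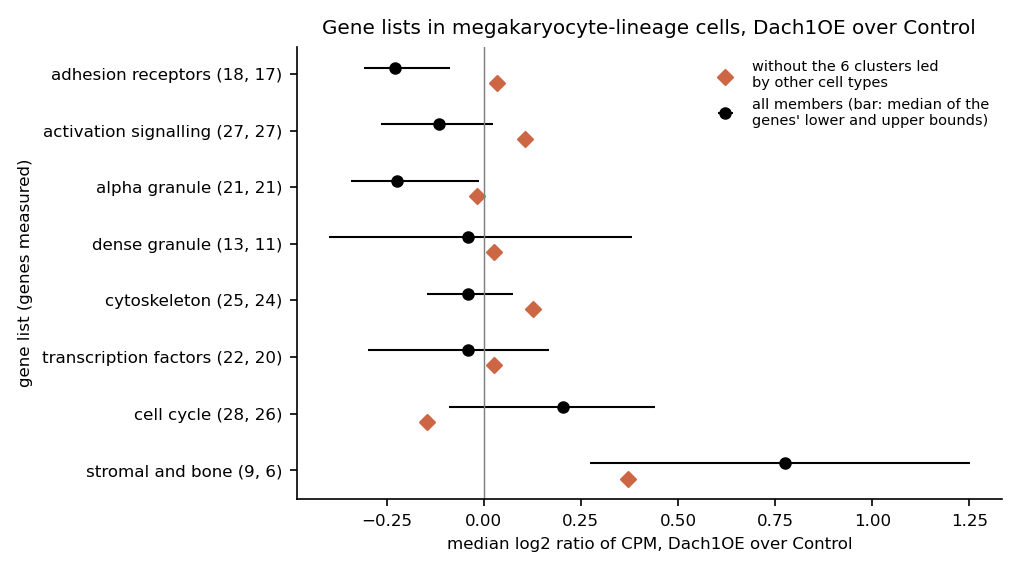
Median log2 ratio of CPM, Dach1OE over Control, for each gene list in all members (circles) and without the 6 clusters led by other cell types (diamonds); bars run from the median of the genes' lower bounds to that of their upper bounds and cover counting error alone. The adhesion receptor median is -0.23 in all members and 0.03 without those clusters.

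The genes that stood highest in Dach1OE members included genes of bone and cartilage matrix. Bglap2, an osteocalcin gene, had 151 UMIs in 40 Control members and 839 in 59 Dach1OE members (log2 2.57, 2.32 to 2.83), with 0.99 in cells with Xist and 4.96 in cells with Y-linked UMIs. Col1a2, a chain of collagen I, had 6734 and 20087 UMIs (1.67, 1.63 to 1.71), Sparc, osteonectin, 4168 and 10617 (1.45), and Col10a1, the collagen of hypertrophic cartilage, 101 and 290 (1.62). Col5a2, of collagen V, was at 1.48 and Serpinf1, a secreted serpin, at 1.63. In the blood classes the ratio was -0.24 for Bglap2, 0.19 for Col1a2, 0.21 for Sparc, -0.04 for Col5a2 and 0.07 for Serpinf1. With no excluding genes the ratio in members was 0.26 for Bglap2, 0.36 for Col1a2 and 0.11 for Sparc, and with at least 2 markers it was 1.35, 0.60 and 0.57. Genes outside the matrix were named too: Car3, a carbonic anhydrase (2.04), Pcsk6, a proprotein convertase (1.79, but -0.17 without the 6 clusters), and Mt2, a metallothionein (1.43), which was at -0.53 (-1.30 to 0.21) without members of another blood class. The stromal and bone list summed to 6772 CPM in Control members and 18320 in Dach1OE members, and to 2105 and 2691 without the 6 clusters, with Pdgfra and Pdgfrb at 0 by the choice. Cluster 12, in which Sparc was at 52053 CPM, held 9 Control and 19 Dach1OE cells. Without the 6 clusters the log2 ratio was 0.53 for Col1a2 and 0.71 for Sparc. Col5a2 stayed past 2-fold there, at 1.08 (0.51 to 1.66). Col3a1 was at 1.25 (0.65 to 1.87) there, against 0.11 in all members. Col10a1 was past 2-fold too, with 84 and 178 UMIs (log2 interval 1.12 to 1.89), beside the cartilage genes Col9a1 (1.04) and Matn3 (27.2 and 55.3 CPM). Cluster 2, among the clusters kept, had the highest chondrocyte list of all 14, at 4576 CPM, with Col2a1 and Col9a1 among its leading genes, and held 76 of the 440 Control and 80 of the 391 Dach1OE members. Its part in these ratios was not tested. The blood classes had 0.56 for Col10a1, and with no excluding genes it was at 0.198 (0.151 to 0.246) in members. Snhg18, a small nucleolar RNA host gene, had 21 UMIs in 15 Control members and 96 in 52 Dach1OE members (log2 2.29). In the blood classes the ratio was 0.43 for Snhg18, 0.68 for Car3, 0.50 for Mt2 and -0.09 for Pcsk6.

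The genes that stood lowest in Dach1OE members included genes of marrow stroma and ECs. Cxcl12 had 1018 UMIs in Control and 486 in Dach1OE (-0.97, -1.13 to -0.81) and -1.45 in the blood classes, but -0.07 (-0.27 to 0.12) in members with at least 4 markers and -0.20 (-0.55 to 0.14) without the 6 clusters, and 0.16 in cells with Xist. Fabp4 had 343 and 141 (-1.19) with -0.78 in the blood classes, Stab2, a scavenger receptor of sinusoidal ECs, 71 and 31 (-1.10) with -1.33, Adipoq 168 and 81 (-0.96) with -1.86, and Adamts5 78 and 33 (-1.14) with -1.22. Gm47283, which the annotation places on chromosome Y, had 147 and 47 (-1.55) with -1.52. Its ratio was -1.43 in cells with Xist (91 and 20 UMIs) and -1.89 in cells with Y-linked UMIs, and cells with Xist were 65.3% and 49.5% of the told members. Adipoq was at 1.57 in cells with Y-linked UMIs (10 and 44 UMIs) and at -0.30 (-0.74 to 0.14) without members of another blood class, and with at least 4 markers Adamts5 was at -0.53 (-1.33 to 0.25). The genes 9330111N05Rik (82 and 38 UMIs, -1.01), Ryr1 (114 and 54, -0.98), Gm10036 (133 and 64, -0.96) and Sgcb (77 and 38, -0.92) completed the list, with -0.16, -0.65, -0.88 and -0.39 in the blood classes. Gm10036 was at 0.21 in cells with Y-linked UMIs. The ratio in the other blood classes was negative for all 10. How many of all genes had a negative ratio there was not counted, so this does not set these genes apart.

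Among the members outside the 6 clusters, genes of megakaryocyte function differed by less than 2-fold. Gata1 had 1247 UMIs in Control and 1270 in Dach1OE (log2 0.44, 0.33 to 0.56), Nfe2 1902 and 1853 (0.38, 0.29 to 0.47), Tubb1 197 and 246 (0.74, 0.46 to 1.01) and Alox12 3300 and 3277 (0.41, 0.34 to 0.48), all at higher CPM in clusters 3 and 11 than in clusters 1, 2, 4, 5 and 10. The lists these 4 genes come from held both signs. Positive and negative ratios were 10 and 10 for transcription factors, 18 and 6 for cytoskeletal genes and 19 and 8 for activation signalling. Tsc22d1, which leads cluster 3, had 13501 and 12432 (0.30, 0.26 to 0.33). Timp3, which leads cluster 4, had 3122 and 2121 (-0.14, -0.22 to -0.06). Npas4, an activity-induced transcription factor gene and a leading gene of cluster 11, had 286 and 433 (1.01, 0.80 to 1.24), with 0.91 in the blood classes. Ddah1, with 81 and 29 UMIs (-1.07, -1.73 to -0.44), was among the lowest there. With 1 library per group, none of these differences can be set against the spread between animals.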

How the data were processed

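Single cells of 2 libraries (Control and Dach1OE, 1 per group, grouped by GEO's labels) were read from the deposited tables, which give for each cell and gene the reads, the UMIs as sequenced and the UMIs left once likely sequencing errors were merged. Per the file headers the authors ran version 1.11 of BD's whole transcriptome pipeline, while their methods state another version, on GRCm38 with GENCODE vM19, with intronic reads counted and refined cell calling. The deposited counts are whole numbers with no normalization. The corrected UMIs were used. Whether counting used strand is not given in the sources used here, so antisense and overlapping genes are uncertain, and near-identical copies (Hba-a1, Bglap2) can share reads.

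The tables held 143986818 and 166999989 UMIs in 28720 and 32028 cells, with 1.51 and 1.45 reads per UMI. The members and the gene lists were chosen with earlier results of these data known, and the 7 markers, being part of the choice, support nothing. Comparison classes had at least 3 markers (erythroid, basophil, myeloid) or a UMI of Cdh5, or of Pdgfra or Pdgfrb, or 5 of Acan. UMIs of members were summed per library and given as CPM. Ratios carry exact conditional binomial intervals, shares exact Clopper-Pearson intervals and differences of shares Newcombe intervals, all at 95%. No test was made, since cells are not replicates. Genes entered ratios at 50 UMIs or more over both libraries.

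Named genes were those of the lists, the 15 of largest ratio to other kept cells with UMIs in 25% of members, the 10 largest and 10 smallest ratios between groups at 100 UMIs or more with no cell holding over 20% of the UMIs and an interval without 0, and likewise the 10 and 10 between members with 6 or 7 and with 3 markers. Genes named from clusters and from the members outside the 6 clusters were chosen after their values were seen, and some genes that these rules name are not reported here. Clusters came from 1500 variable genes without the 7 markers, 15 principal components, 15 neighbours and the Leiden algorithm at resolution 0.8 (leidenalg 0.10.2, igraph 0.11.9). Doublets were not called beyond the excluding genes. The sex of a cell, taken to stand for its mouse, was told by Xist without Y-linked UMIs or by Y-linked UMIs (4 genes) without Xist. Ratios were tested on simulated library sums without spread between cells. Thinning was checked by the UMI totals of thinned Control members. Alternatives were other marker minimums, cell filters, raw UMIs, scalings (edgeR 4.0.16 TMM factors, median of ratios), equal weights of cells and count minimums; leaving out the 6 clusters and taking each library apart were chosen after seeing the data. Coordinates are 1-based, from GENCODE vM21 on GRCm38. Promoters are from RefSeq, with all 7 markers matched.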

Additional observations from a re-analysis of the deposited data

Results flagged for a closer look

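The share of members among kept cells differed between the groups in opposite directions in the cells told to be of each sex: -0.336 percentage points, Dach1OE minus Control, in cells with Xist, and 0.107 in cells with Y-linked UMIs. Among members and the other blood classes the differences were -3.53 and 0.705 points. Each sex is taken to be 1 mouse per library, and the difference between them was not tested. Members told by sex were also spread unevenly over the clusters.

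Among the genes named for their ratio between groups, 3 had opposite signs in the cells of each sex. The log2 ratio of Cxcl12 was 0.16 in cells with Xist and -0.74 in cells with Y-linked UMIs, that of Gm10036 was -1.69 and 0.21, and that of Adipoq was -1.30 and 1.57. These differences were not tested. No group had enough libraries for a search for outlying samples.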

How the results depend on the processing

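No paired analysis was possible because there was 1 library per group and the labels carry no replicate numbers. The difference in the share of members was 0.107 points in cells with Y-linked UMIs and negative in the other 12 of 13 settings, but its interval also included 0 at a mitochondrial share under 10% (-0.0988, -0.387 to 0.188), with at least 2 markers (-0.498 to 0.0829), with no excluding genes (-0.462 to 0.134) and with at least 2000 UMIs per cell (-0.437 to 0.042). It was -3.48 points against the blood classes and members. Counts past 2-fold between the groups moved most with the UMI minimum. Higher and lower genes were 1232 and 836 with 1 UMI in each library, 306 and 168 at 20 UMIs and 58 and 9 at 100 UMIs. Higher genes were 56 with at least 2 markers and 35 without the 6 clusters led by other cell types. Lower genes were 95 with no excluding genes, 101 in cells with Xist and 144 with cells weighted equally.

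List medians between the groups were moved by the cells taken. Without members of another blood class they were 0.0607 for the 7 markers, -0.0697 for adhesion receptors, 0.0309 for activation signalling, 0.10 for cytoskeleton and -0.32 for cell cycle. Without the 6 clusters they were 0.10 for the 7 markers, 0.0343, 0.11, 0.13 and -0.15 for the same lists. In cells with Y-linked UMIs they were -0.40 for the 7 markers, -0.50 for adhesion receptors, -0.32 for activation signalling, -0.34 for cytoskeleton and 2.39 for stromal and bone genes. In cells with Xist they were -0.86 for the 7 markers, -0.69 for adhesion receptors, -0.39 for activation signalling, -0.54 for alpha granule and -0.41 for cytoskeleton. With at least 4 markers they were -0.0029 for the 7 markers, -0.0692 for adhesion receptors and 1.52 for stromal and bone genes. With cells weighted equally they were 0.0159 for the 7 markers, -0.0329 for adhesion receptors, 0.046 for activation signalling and 0.017 for stromal and bone genes. The stromal and bone median was 0.0528 with at least 2 markers, 1.26 with at least 1000 genes and 0.0327 with no excluding genes. The cause of these moves was not tested. Cells told by sex are also not an even sample of the members.

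Reversed ratios of named genes were Mt2 at -0.53 without members of another blood class, Pcsk6 at -0.17 without the 6 clusters, Gm10036 at 0.21 and Adipoq at 1.57 in cells with Y-linked UMIs and Cxcl12 at 0.16 in cells with Xist; the cause was not tested. Against the other blood classes, lower genes were 438 with at least 2 markers, 2328 with at least 4, 2704 without members of another blood class, 2900 without the 6 clusters and 2357 with cells weighted equally, and higher genes were 3325 with no excluding genes and 1127 against basophil class cells alone. The log2 ratio of adhesion receptors by marker number was 1.92 thinned to 500 UMIs, 2.57 unthinned, 2.04 without members of another blood class, 1.94 without the 6 clusters, 2.08 in Control alone and 2.51 in Dach1OE alone. Of 248 recomputed values of main results, 192 stayed within a set band. The band was the counting interval, 1.5-fold for counts, and for list medians the medians of the genes' lower and upper bounds. That last band is wide and holds both signs for some lists. Activation signalling went from -0.11 to 0.0175 with at least 4 markers and still counted as unmoved. Its sign was opposite in 4 of 18 settings. Scaling by TMM or median-of-ratios factors moved none of the main results beyond the band. Genes under 50 UMIs over both libraries were not compared between the groups.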

Other observations

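Other chemokine genes lie beside Pf4 and Ppbp. Cxcl5 (chr5:90759360-90761624, plus strand), had 264 UMIs in Control members (92.4 CPM) and 73.0 CPM in Dach1OE members, against 0.0771 and 0.125 CPM in the blood classes. Cxcl3 (chr5:90786103-90789600, plus strand) had 15 UMIs in Control members and 27 in Dach1OE members.

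Of 12 progenitor genes, 5 were at least 2-fold higher in members than in the blood classes and 1 lower, against 14.8% and 11.9% of all genes tested. Kit had a UMI after thinning in 0.382% of Control and 1.58% of Dach1OE members, and Cd34 in 3.24% and 1.98%. Slamf1, which codes for CD150, a surface protein of blood stem cells and megakaryocytes, was at 218 CPM in Control members and 221 in Dach1OE members against 3.39 and 5.10 in the blood classes, and at 781, 750 and 699 CPM in clusters 3, 8 and 11 against 49.2 to 295 CPM in the other 5 clusters not led by other cell types. Pecam1, an adhesion receptor of platelets and ECs, was at 1781, 950 and 2365 CPM in clusters 3, 8 and 11 against 54.7 to 174 CPM.

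Members that met the rule of another blood class were 77 in Control (13.8%) and 94 in Dach1OE (17.1%). Of Cdh5 cells, 159 of 9315 in Control (1.71%) and 204 of 9910 in Dach1OE (2.06%) had at least 3 of the 7 markers, beside 84 of 5250 and 93 of 4920 Pdgfr cells and 1.54% and 1.18% of Acan cells.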
